A study of Homo sapiens with 2 samples.

Results

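The genes described here are 3 cyclins (CCNA1, CCND1 and CCND2), the cyclin-dependent kinase inhibitor p16 (CDKN2A), the proliferation marker Ki-67 (MKI67) and the cytokinesis factor ECT2. They are 6 of the 84 genes of a prostate cancer qPCR panel, and were picked by name from the accession or description of each well. RNA of cells labelled LNCaP, a line derived from human prostate cancer, was compared between 1 control sample (treatment given as control) and 1 BMI1-silenced sample. The labels name siRNA as the silencing agent and the study's methods a short hairpin RNA plasmid, pGeneClip-BMI1-shRNA, with the empty vector as its control. The methods describe transient transfections in which a part of the cells was not reached, with the lowest share reached in LNCaP. Stable BMI1-silenced cells are described there for another line, PC3. How the sizes of the changes below relate to the share of cells reached was not tested. RNA of each group was combined before the assay. There was thus no replicate and no test, and how far separate cultures differ cannot be read from the data. A lower RNA level per cell and fewer cells with the RNA cannot be told apart.

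Cyclins of the D type bind the kinases CDK4 and CDK6 at the start of the cell cycle, and these kinases phosphorylate the retinoblastoma protein so that S phase genes are transcribed. p16 binds CDK4 and CDK6 and keeps the D-type cyclins from activating them. BMI1 is a Polycomb protein, and the CDKN2A locus is its best known target for repression. Cyclin A1 is an A-type cyclin known mainly from male germ cells. Ki-67 coats mitotic chromosomes and is present in cycling but not in resting cells, and ECT2 is an exchange factor for RhoA that is needed for cytokinesis.

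The RefSeq promoter table (GRCh38.p14) held sequence for 4 of the 6 genes. The 250 bases before the start site are shown for the pair of cell division genes that were lower in BMI1-silenced cells, MKI67 and ECT2, and for the inner of 2 start sites of CDKN2A, known as that of the p16 transcript, which was higher. Capitals mark the CHR element (TTTGAA), a site of late cell cycle genes, and the CCAAT box (CCAAT), each searched on both strands.
MKI67, chr10:128126424-128126673, minus strand: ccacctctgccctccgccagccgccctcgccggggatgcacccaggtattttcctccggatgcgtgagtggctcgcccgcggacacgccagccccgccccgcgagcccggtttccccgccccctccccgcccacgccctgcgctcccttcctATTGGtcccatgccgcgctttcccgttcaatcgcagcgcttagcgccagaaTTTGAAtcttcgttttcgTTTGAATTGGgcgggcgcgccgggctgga
ECT2, chr3:172750476-172750725, plus strand: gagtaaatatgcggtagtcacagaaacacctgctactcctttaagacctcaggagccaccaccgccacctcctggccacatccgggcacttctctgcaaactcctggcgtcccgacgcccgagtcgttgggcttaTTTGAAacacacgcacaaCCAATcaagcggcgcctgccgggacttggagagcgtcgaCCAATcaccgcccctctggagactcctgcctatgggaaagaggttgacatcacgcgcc
CDKN2A, chr9:21974858-21975107, minus strand: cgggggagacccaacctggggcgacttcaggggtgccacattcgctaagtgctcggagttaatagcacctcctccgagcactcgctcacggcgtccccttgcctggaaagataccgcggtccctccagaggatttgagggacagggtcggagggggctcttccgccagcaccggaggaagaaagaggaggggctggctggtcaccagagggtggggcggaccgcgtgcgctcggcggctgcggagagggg

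The MKI67 window held 2 CHR letter matches and 2 CCAAT matches, and 1 of each share a base. The ECT2 window held 1 CHR match and 2 CCAAT matches, while the window of a second ECT2 start site (chr3:172750752-172751001, plus strand) held 2 CHR matches and 0 CCAAT matches. The p16 window held neither. Of all 35116 promoter windows of this length, 13.3% held at least 1 CHR match, 32.01% at least 1 CCAAT match and 4.69% both. The CpG dinucleotide, the step at which human DNA is methylated, occurred 30 times in the MKI67 window, 17 times in the ECT2 window and 20 times in the p16 window, against a median of 11 over all windows. The outer CDKN2A start (chr9:21995325-21995574, minus strand), known as that of the p14ARF transcript, had 24, and the CCNA1 window (chr13:36431705-36431954, plus strand) had 31. At least as many CpG were held by 12.4% of all windows for MKI67, 39.0% for ECT2 and 32.4% for p16. For the outer CDKN2A start this share was 23.7% and for CCNA1 10.9%. The motif matches are letters in a sequence, and binding was not measured. The motifs were chosen after the sequences were seen, and a link between them and the RNA changes was not tested.

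The threshold cycle (Ct) is the PCR cycle at which a well reaches a set fluorescence, and each cycle less means up to a doubling of the starting RNA. The authors' normalized value is 2 to the power of -Delta Ct, the difference in Ct between a well and 1 reference Ct per sample. Ct values above 32 had been set to 32 in it. All 6 genes were below that ceiling in both samples, with raw Ct values between 20.4 and 29.6. In the deposited normalized table the first column is control and the second BMI1-silenced, by the header of the fold change table. The raw Ct table went with the opposite samples. With its columns exchanged, the Ct values of 5 of the 6 genes matched the normalized values in both samples to within 0.001 cycles, and with the columns as named 0 did. All directions below follow the normalized table. They are the reverse if the raw columns are taken as named, and the panel had no assay for BMI1 that could settle the assignment.

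All 5 reference genes had lower normalized values in BMI1-silenced cells, by a mean of -1.68 on the log2 scale. A log2 change below is the log2 of the BMI1-silenced over the control normalized value minus this mean. The reference genes themselves then lay between -0.53 (HPRT1) and 0.71 (GAPDH), with an SD of 0.47 over the 5 genes, which is a spread of genes and not of cultures. The labelled line was checked against its markers. KLK3, which codes for the prostate-specific antigen and is a defining product of LNCaP cells, was at the ceiling in control cells (normalized value 0.0489) and 0.197 in BMI1-silenced cells. TMPRSS2, an androgen-responsive protease gene of the prostate, was 0.713 and 0.653. CAV1, a caveolin gene of stromal and basal cells, stood at 153 in control and 27.0 in BMI1-silenced cells. Over the 5 stromal and basal genes fixed for this check (CAV1, CAV2, TIMP3, LOXL1 and TGFB1I1) the normalized values summed to 186 and 78.6, of which TIMP3, whose normalized values did not match the raw table, gave 0.334 and 40.9. The KLK3 and CAV1 levels of both samples go against the label, and the line is named here as labelled only. The part of these levels in the results was not tested.

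Of the 6 genes, 3 passed 2-fold downwards in BMI1-silenced cells (CCND1, MKI67 and ECT2), 2 passed it upwards (CDKN2A and CCND2) and CCNA1 was within 2-fold. Over the 83 panel genes that could be compared, 16 (19.3%) passed 2-fold downwards and 29 (34.9%) upwards. The median log2 change was -0.53 over the 6 genes and 0.20 over the panel. With 1 sample per group these shares describe the pair of samples only.

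**Figure D1:**
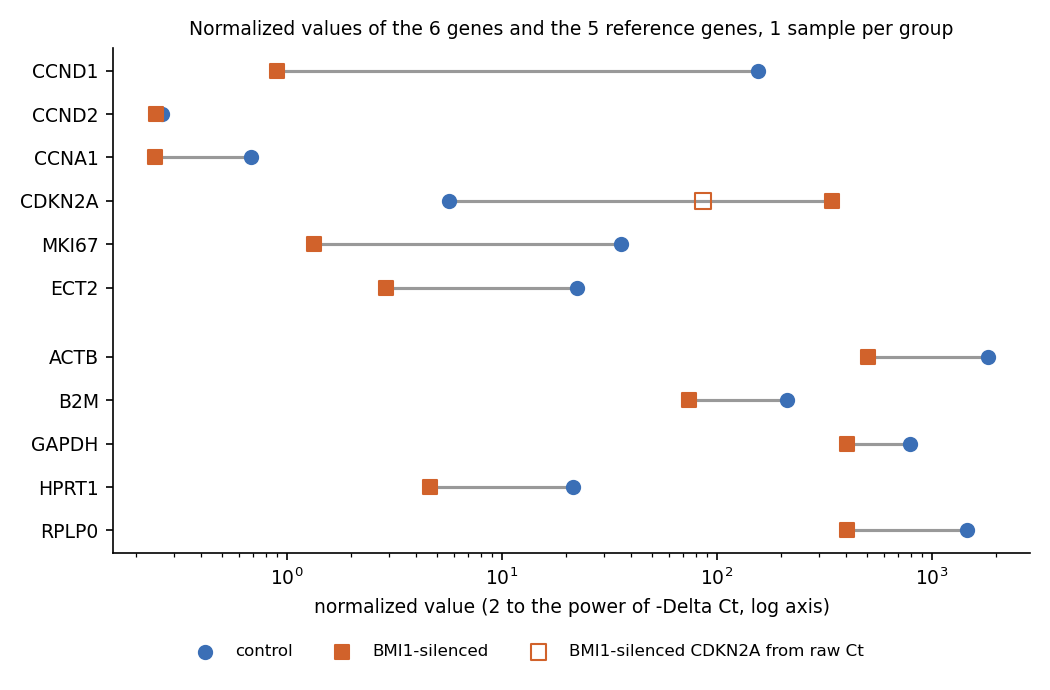
Normalized value (log axis) of each of the 6 genes and of the 5 reference genes in control (blue circles) and BMI1-silenced cells (orange squares), 1 sample per group. The open square marks the CDKN2A value that the raw Ct gives, 86.5 in place of 346, and CCND2 is the gene whose symbols nearly coincide, at 0.262 and 0.248.

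The normalized value of cyclin D1 (CCND1, NM_053056) was 156 in the control sample and 0.904 in the BMI1-silenced sample. These values went with a Ct of 20.4 and 27.5. The log2 change was -5.75, or 54.0-fold lower, which was the second lowest of the 83 genes after ZNF185, a gene at the ceiling in BMI1-silenced cells. No reference gene taken alone brought the log2 change of CCND1 above -5.22.

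Cyclin D2 (CCND2, NM_001759), the other D-type cyclin on the panel, stood at a normalized value of 0.262 in the control sample against 0.248 after silencing. Its Ct was 29.6 and 29.4, a difference of 0.2 cycles, whereas the mean Ct of the reference genes differed by 1.4 cycles. The log2 change of 1.60, or 3.03-fold higher, thus comes from the reference genes, and the ratio of the normalized values alone gave -0.08. With GAPDH alone as the reference it was 0.89, within 2-fold. With each of the 5 reference genes taken alone the value stayed above 0, up to 2.13 with HPRT1, so the choice among them moved the size, and the sign turned where no reference gene was used.

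Cyclin A1 (CCNA1, NM_003914) went from a normalized value of 0.68 in control to 0.244 in BMI1-silenced cells, with Ct values of 28.2 and 29.4. Its log2 change was 0.20, less than the SD of the reference genes, and in place 42 of 83 it was itself the median gene of the panel. With no reference gene CCNA1 would be 2-fold lower, at -1.48, as would most of the panel: 62.7% of the 83 genes were at least 2-fold lower on that scale. With GAPDH alone its sign turned, to -0.51.

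The difference between the log2 changes of a pair of cyclins holds no reference gene, since the reference cancels. Cyclin D1 changed by -7.35 relative to cyclin D2, so the ratio of CCND1 to CCND2 was 164-fold lower in BMI1-silenced cells. Relative to cyclin A1, cyclin D1 changed by -5.96, or 62.1-fold. Cyclin D2 and cyclin A1 stood closer, with a difference of 1.40 (2.63-fold) in favour of cyclin D2. The log2 changes of the reference genes differed from one another by up to 1.24, which both differences of cyclin D1 exceeded several times and that of cyclin D2 minus cyclin A1 by little. The order of the log2 changes, from low to high, was thus cyclin D1, cyclin A1 and cyclin D2. Cyclin D1 stood apart by several cycles, and the other pair by less than 2. Levels were not compared between the cyclins, because the length of the PCR products is not given in the sources used here.

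CDKN2A (NM_000077) went from a normalized value of 5.71 in the control sample to 346 in the BMI1-silenced sample. The log2 change was 7.60, or 194-fold higher, the second highest of 83. CDKN2A was the one gene of the 6 whose normalized values did not match the raw table in both samples. The control value went with the raw Ct of 25.1 to within 0.001 cycles. The BMI1-silenced value went with a Ct of 18.9, where the raw table holds 20.9, a difference of -2 cycles to 5 decimals. The raw Ct gives a normalized value of 86.5, a log2 change of 5.60 and 48.6-fold higher. The direction relative to the normalized columns was thus kept, and the size differed by 4 times. The rank holds at the ceiling of 32, under which the changes of several other genes are lower bounds. With raw Ct values and no ceiling for any gene, CDKN2A was in place 6 from the highest, with KLK3 (5.86) and TIMP3 (9.62) among the genes above it. The assay is listed under the p16 transcript, and whether it also amplifies p14ARF of the same locus is not given in the sources used here.

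The change of CDKN2A relative to CCND1, the inhibitor against the cyclin it opposes, was 13.36 on the log2 scale by the normalized values and 11.36 by the exchanged raw columns. Relative to CCND2 the same difference was 6.0 and 4.0. Relative to the reference genes, CCND1 and CDKN2A lay near opposite ends of the panel, and CCND2 was on the side of CDKN2A.

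**Figure D2:**
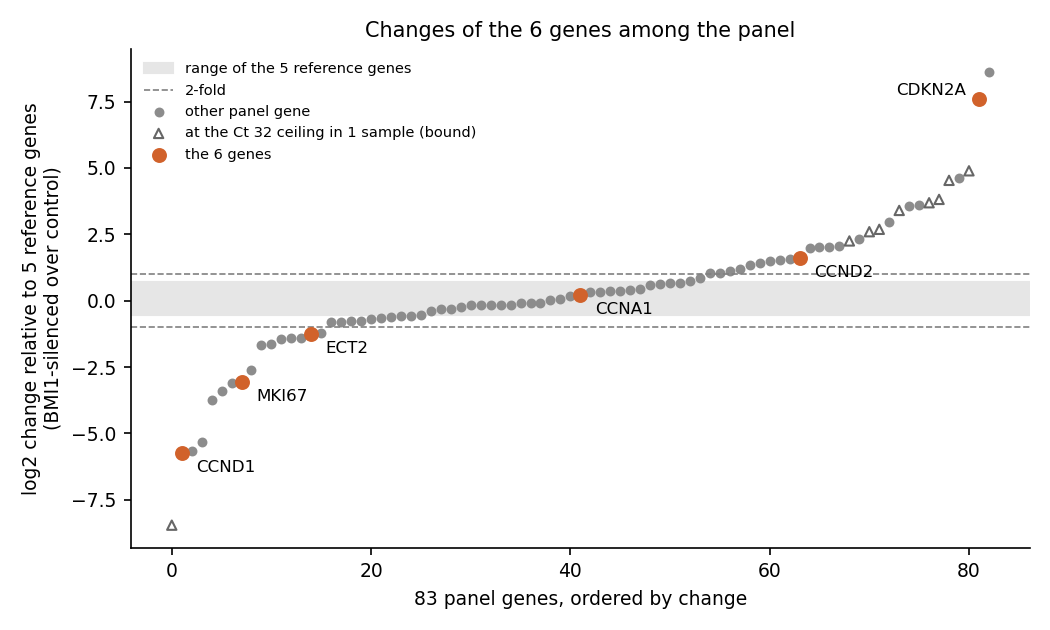
Log2 change (BMI1-silenced over control, relative to the 5 reference genes) of the 83 panel genes in order, with the 6 genes in orange and labelled, the range of the reference genes in grey and 2-fold as dashed lines. CCND1 (-5.75) and CDKN2A (7.60) lie near the ends, CCNA1 (0.20) lies inside the range of the reference genes, and triangles are bounds.

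MKI67 (NM_002417) stood at a normalized value of 35.9 in the control sample and 1.33 in the BMI1-silenced sample, with Ct values of 22.5 and 27.0. The log2 change was -3.07, or 8.41-fold lower, in place 8 from the lowest of 83. With each reference gene taken alone it lay between -3.78 (GAPDH) and -2.54 (HPRT1), so MKI67 was more than 4-fold lower under each. ECT2 (NM_018098) went from 22.4 to 2.9 on the same scale, with Ct values of 23.2 and 25.8. Its log2 change of -1.27, or 2.41-fold lower, was in place 15 from the lowest, and just beyond it the panel had 1 more gene past 2-fold. With HPRT1 alone ECT2 was at -0.74, within 2-fold. Both genes were lower, and the change of MKI67 minus that of ECT2 was -1.81 on the log2 scale, or 3.5-fold. The change of cyclin D1 was larger still: MKI67 stood 2.68 and ECT2 4.49 above CCND1.

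**Figure D3:**
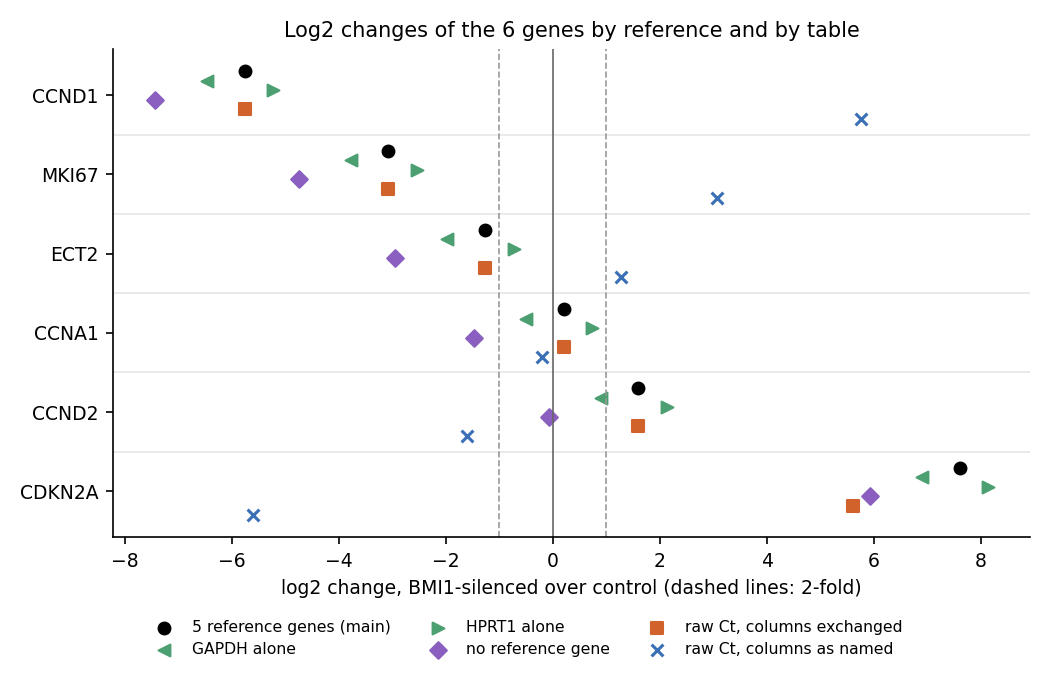
Log2 change of each of the 6 genes under the 5 reference genes, GAPDH alone, HPRT1 alone, no reference gene, raw Ct with the columns exchanged, and raw Ct with the columns as named. CCND1, MKI67 and CDKN2A stay beyond the dashed 2-fold lines on one side in all but the last setting, whereas ECT2, CCNA1 and CCND2 cross a line, and the columns as named reverse each of the 6 signs.

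The panel genes with the log2 change nearest to each of the 6, over this 1 pair of samples, were NFKB1 for CCND1 (-5.66, a distance of 0.096), IL6 for MKI67 (-3.11, 0.036), STK11 for ECT2 (-1.21, 0.052), LOXL1 for CCNA1 (0.19, 0.011) and TMPRSS2 for CCND2 (1.55, 0.047). For CDKN2A the nearest was TIMP3 (8.62), at a distance of 1.01, and the normalized values of TIMP3 did not match the raw table either. This nearness holds for the normalized values only. By the exchanged raw columns TIMP3 was at 9.62 and CDKN2A at 5.60, and EGR3 (4.62), whose values matched, lay closer to CDKN2A than TIMP3 did. Likeness in a single pair of samples gives a position on the panel and no more.

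A list of 10 signalling and transcription genes that act on D-type cyclins or on entry into the cell cycle was on the panel in full. This list was chosen with earlier results of these data known. Its counts and median are therefore a description and no test. Relative to the reference genes 4 passed 2-fold downwards, 2 passed it upwards and 4 did neither, beside panel shares of 19.3% and 34.9%, with a median of -0.49 against 0.20 over the panel. NFKB1, a transcription factor that can drive CCND1, was 50.5-fold lower. AKT1, a kinase that stabilizes cyclin D1 protein, was 2.68-fold lower, and IGF1, a growth factor upstream of it, was 2.69-fold lower. CREB1, which binds the CCND1 promoter, was at 0.06 on the log2 scale. FOXO1, which represses D-type cyclins, was 2.84-fold higher, although with a normalized value of 0.151 before and 0.134 after silencing it shared with CCND2 a ratio near 1 before the reference was subtracted. MAX, the partner of MYC, was 2.55-fold higher. Whether the changes of these signalling and transcription genes bear on those of the D-type cyclins was not tested. The 15 other cell division and growth genes on a further list were represented by 4 (DDX11, PES1, DLC1 and RASSF1). Of these, 0 passed 2-fold downwards, 1 passed it upwards (RASSF1, 4.02-fold higher) and 3 did neither. With 4 genes this cannot be told from the panel shares of 19.3% and 34.9%.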

How the data were processed

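Cells labelled LNCaP, control or BMI1-silenced (1 combined RNA sample each), were measured by SYBR Green PCR with 45 cycles on a plate of 96 wells, from 1 microgram of RNA. The authors deposited a table of raw Ct, a table of normalized values, which are a ratio to a reference (2 to the power of -Delta Ct), and fold changes. The fold changes are the authors' own comparison and were not used, apart from the header. The threshold and the reference are not given in the sources used here. From the values, 1 reference Ct per sample was used, and 90 of the 96 wells matched once the raw columns were exchanged and a ceiling of 32 was applied.

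Log2 changes relative to ACTB, B2M, GAPDH, HPRT1 and RPLP0 were computed from the normalized values, and 1 gene at the ceiling in both samples was left out. Counts used the 2-fold cut-off of the methods. Alternatives were the single reference genes, the panel median, no reference gene, raw Ct values, an amplification of 1.8 per cycle, thresholds of 1.5-fold and 4-fold, and genes under Ct 30. The code was tested on simulated data. In the raw columns the positive PCR controls gave 19.8 ± 0.359 and 19.7 ± 0.482 cycles (SD, n = 3 wells).

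Accessions were matched to RefSeq symbols (88 of 89), and CCNA1 was identified by its description. No build is named in the tables, and promoter positions are those of RefSeq. Named genes are the 6 members, the reference genes, the fixed lists, the markers and the nearest gene to each member. The members and lists were chosen with earlier results of these data known, and the motifs after the promoter sequences were seen. Some panel genes are not reported here. Python 3.11.15, numpy 2.4.6, pandas 2.3.3 and matplotlib 3.10.9 were used.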

Additional observations from a re-analysis of the deposited data

How the results depend on the processing

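No paired analysis was possible because there was 1 sample in each group. With the panel median, ACTB, B2M or RPLP0 as the reference, each of the 6 log2 changes moved by less than 0.47, and 3 genes were lower and 2 higher, as before. Over the panel 16 genes were lower under each of these, and between 26 (B2M) and 30 (ACTB and RPLP0) were higher. With GAPDH alone 1 of the 6 genes was at least 2-fold higher, and over the panel 29 were lower and 19 higher. With HPRT1 alone 2 of the 6 were lower, and over the panel 11 were lower and 35 higher. With no reference gene 4 of the 6 were lower and 1 higher, CCND2 changed sign (-0.081), and over the panel 52 were lower and 12 higher. At a 4-fold threshold 1 of the 6 was higher, and over the panel 9 were lower and 18 higher. With an amplification of 1.8 per cycle, cyclin D1 minus cyclin A1 was -5.05 and cyclin D1 minus cyclin D2 was -6.24. The calls of the 6 genes were unaffected (3 lower, 2 higher), and over the panel 16 were lower and 26 higher.

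The raw Ct columns as named reversed the results by construction, with and without a ceiling of 35. The log2 change was 5.75 for CCND1, -1.60 for CCND2, -5.60 for CDKN2A, 1.27 for ECT2 and 3.07 for MKI67, and the cyclin differences were 5.96 (D1 minus A1), 7.35 (D1 minus D2) and -1.40 (D2 minus A1). Over the panel 31 genes were lower at a ceiling of 35 and 32 without one, and 16 higher at both. With exchanged columns and a ceiling of 35, none or 32 (the last chosen after seeing the data), CDKN2A alone of the 6 moved, to 5.60. No setting shows the spread between cultures.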
